A study of Homo sapiens with 36 samples.

Results

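HepG2 cells, an established human hepatoma line, were incubated for 24 h with docosahexaenoic acid (DHA) together with protocatechuic acid (PCA) and compared with vehicle control cells (Ctrl) of the same time. The comparison was defined by the sample titles and held 3 libraries of DHA + PCA and 3 of Ctrl, 6 of the 36 RNA-seq libraries of the series. DHA + PCA cells received 50 µM DHA complexed to albumin and 20 µM PCA in serum-free medium, and Ctrl cells received the albumin and both solvents without the compounds. The other groups were DHA, PCA, propionate (PRO) and DHA + PRO, and each group was sampled at 6 h and 24 h. Each library held the pooled RNA of 3 replicate cultures from 1 of 3 independent experiments, and the replicate number was used as a pairing factor. The labels do not state that the same number marks the same experiment in every group. All libraries came from 1 tumour cell line, so no value below describes primary hepatocytes.

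DHA is a long-chain omega-3 polyunsaturated fatty acid, and PCA is a phenolic acid that gut bacteria form from anthocyanins. Hepatocytes build cholesterol from acetyl-CoA through mevalonate and squalene, and build fatty acids from acetyl-CoA through malonyl-CoA. The genes of both pathways are controlled by the sterol regulatory element-binding proteins, membrane-bound factors encoded by SREBF1 and SREBF2 that are released by cleavage when cellular sterols are low. Polyunsaturated fatty acids are also prone to peroxidation, and the factor NRF2 drives a set of genes that detoxify peroxides and reactive carbonyls.

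The 6 libraries held between 5617341 and 7541114 counts. Of the 9 hepatocyte markers listed, all were present, and ALB, the gene of serum albumin, had between 134217 and 212395 counts per library. Of 5 leukocyte genes PTPRC and CD3E were at 0 counts, CD14 had 0 to 10, CD68 239 to 367 and LYZ 8798 to 16693, and of 4 endothelial genes KDR was at 0 and the others had at most 3. The fibroblast genes DCN and LUM had at most 1 count and COL1A1 had 1 to 35. The 2 fibroblast genes that passed the filter had a median log2 fold change of −1.43 and neither was called, and their part in other results was not tested. Expression was tested with edgeR's quasi-likelihood test in a fit of the 18 libraries of 24 h, with the replicate number as a block. Genes whose Benjamini-Hochberg adjusted p did not exceed 0.05 and whose average log2 CPM was over 0 were called. Levels are given as CPM, the count scaled to a common library size after TMM adjustment. They are not corrected for gene length and are compared within a gene only. Values after ± are the SE of a log2 fold change. In these bulk libraries, fewer cells expressing a gene and less RNA of it per cell cannot be told apart.

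DHA + PCA changed 130 of the 11893 genes tested (1.09%), of which 46 were higher (0.387%) and 84 lower (0.706%) than in Ctrl. The called genes of cholesterol and fatty acid synthesis fell, and the called aldo-keto reductases and members of the NRF2 list rose. On the log2 scale 43 of the 84 falls were beyond −0.5 and 5 beyond −1, 17 of the 46 rises were beyond 0.5 and 5 beyond 1, and the median over all genes was 0.0033. The CPM of the treated and Ctrl libraries did not overlap for 122 of the 130, 41 rises and 81 falls. Among all genes tested, 12.7% did not overlap, 6.29% higher and 6.37% lower. Without the replicate block 34 genes were called, 6 higher and 28 lower, and all 34 were among the 130. Leaving out single libraries of these 2 groups gave between 53 genes (without Ctrl replicate 1) and 97 (without DHA + PCA replicate 1). The count was 54 without DHA + PCA replicate 3, 70 without Ctrl replicate 3 and 78 without Ctrl replicate 2. Leaving out all libraries of replicate number 3 gave 25 genes, and of number 1 gave 52. None of the 130 changed sign in any of the 19 settings tried, and 19 were called in every one of them, 15 falls and 4 rises. The falls included HMGCS1, FDFT1, CYP51A1, MSMO1, SREBF1, ACLY, ACSS2, FASN, SCD, FST, CTGF and CCDC152, and the rises were AKR1B10, AKR1B15, GPX2 and SPP1.

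**Figure D1:**
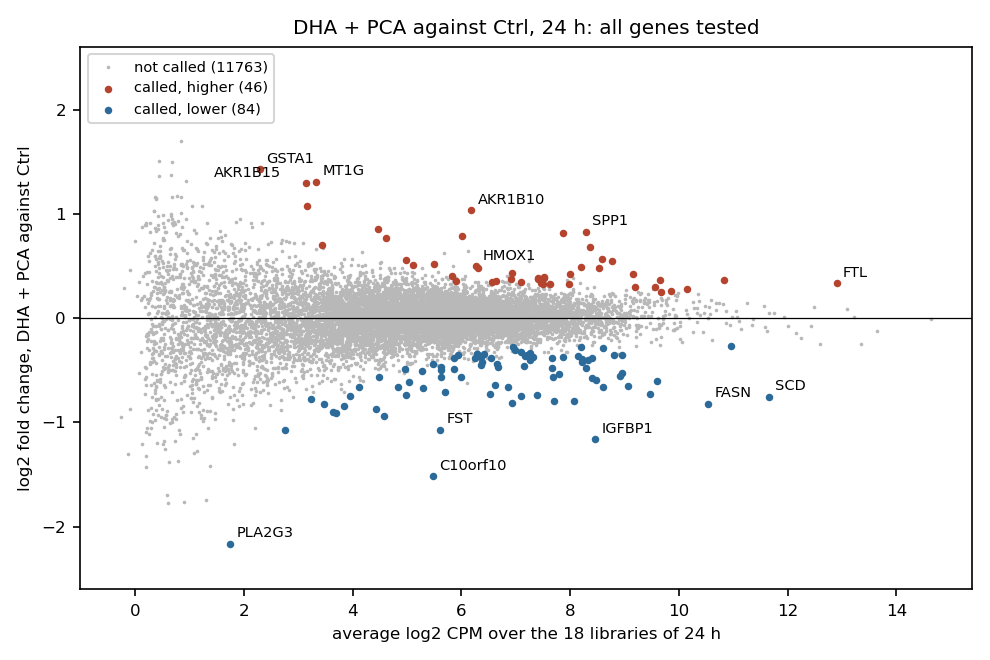
Log2 fold change of DHA + PCA against Ctrl at 24 h (y axis) against the average log2 CPM over the 18 libraries of 24 h (x axis) for the 11893 genes tested, 1 point per gene. The 46 rises called are in red and the 84 falls in blue, and the called genes with the farthest values are PLA2G3 at −2.16 and GSTA1 at 1.43.

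The mevalonate pathway, which carries acetyl-CoA to farnesyl diphosphate, fell in 7 of its 9 genes, with a list median of −0.44 against 0.0033 over all genes tested. HMGCS1, which condenses acetoacetyl-CoA with acetyl-CoA and lies at chr5:43287572-43313614 of hg19 on the minus strand, had 871, 905 and 837 CPM in Ctrl and 535, 573 and 467 with DHA + PCA. All treated libraries lay below all Ctrl libraries, and the log2 fold change was −0.73 ± 0.11 (adjusted p = 3.01e-04). MVD, which decarboxylates mevalonate diphosphate, fell the most among the 9, from 316, 364 and 350.00 to 217, 174 and 199 CPM (−0.80 ± 0.14, adjusted p = 0.00247). IDI1, the isomerase of isopentenyl diphosphate, fell by 0.54 on the log2 scale, MVK, the mevalonate kinase, by 0.44, ACAT2, the cytosolic thiolase, by 0.38 and FDPS, the farnesyl diphosphate synthase, by 0.36. None of the 7 called genes overlapped between the groups. The kinase PMVK and the synthase GGPS1 did not pass the test and had values of −0.09 and −0.03. Without the replicate block 3 of the 9 were called.

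From squalene to cholesterol 8 of 13 genes fell, with a median of −0.46. FDFT1, the squalene synthase, went from 930.3, 895 and 979 CPM in Ctrl to 606, 617 and 624 with DHA + PCA (−0.60 ± 0.06, adjusted p = 9.57e-07), and its treated values lay close together. SQLE, the squalene epoxidase, had 493, 511 and 510.5 CPM in Ctrl and 386, 436 and 362 with DHA + PCA, a fall of 0.36 (adjusted p = 0.007). LSS, which closes the ring to lanosterol, had 80.4, 130.3 and 127 CPM in Ctrl and 61.01, 74.98 and 64.9 with DHA + PCA. LSS had the largest fall of the list (−0.73 ± 0.11, adjusted p = 3.61e-04), although Ctrl replicate 1 stood nearer to the treated libraries than to the other Ctrl libraries. The lanosterol demethylase CYP51A1 fell from 253, 259 and 228 to 156, 184 and 159 CPM (−0.57 ± 0.08, adjusted p = 7.58e-05). MSMO1, a sterol C4-methyl oxidase, fell from 410.1, 444 and 369.6 to 264, 289.7 and 265 CPM (−0.58 ± 0.07, adjusted p = 5.54e-05). DHCR7 (−0.55), the last reductase, HSD17B7 (−0.50), a 3-ketosteroid reductase, and TM7SF2 (−0.46), a sterol reductase, completed the 8, and none of them overlapped. LBR (0.01), NSDHL (−0.33, adjusted p = 0.0588) and EBP (−0.22) were among the 5 members that did not pass. Without the block 4 of the 13 were called.

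Of the 12 genes of LDL uptake and sterol traffic 3 fell, and 11 had negative values. STARD4, a cytosolic sterol carrier, fell from 54.9, 68.8 and 58.6 CPM in Ctrl to 36.3, 48.1 and 38.7 with DHA + PCA (−0.57 ± 0.11, adjusted p = 0.00873), and its groups did not overlap. MYLIP, an E3 ubiquitin ligase, had a value of −0.75 ± 0.23 (adjusted p = 0.131) and NPC1, a lysosomal cholesterol exporter, −0.27 (adjusted p = 0.0625).

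Of 6 tested genes of the SREBP machinery only SREBF1 was called. SREBF1 had 161, 142 and 156 CPM in Ctrl and 109, 68.5 and 85.7 with DHA + PCA, with no overlap and a fall of 0.82 on the log2 scale (SE 0.13, adjusted p = 0.00104). SREBF2, the main regulator of the cholesterol genes, had 291, 326 and 337 CPM in Ctrl and 278, 252 and 256 with DHA + PCA. The SREBF2 libraries did not overlap either, and the value of −0.28 ± 0.08 did not pass the test (adjusted p = 0.128). Whether the values of SREBF1 and SREBF2 differed was not tested.

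Of the 8 fatty acid synthesis genes tested 4 fell, with a list median of −0.23. The values of 6 were negative and of 2 positive, the highest 0.44. The libraries of 1 member lay above Ctrl without overlap, and no member was called as a rise. ACSS2, which makes acetyl-CoA from acetate, had 273, 286 and 254 CPM in Ctrl and 161, 142 and 167 with DHA + PCA (−0.79 ± 0.07, adjusted p = 4.85e-07). ACLY, which makes cytosolic acetyl-CoA from citrate, fell from 551, 591 and 598 to 408, 396 and 405 CPM (−0.52 ± 0.06, adjusted p = 1.03e-05). FASN, the fatty acid synthase (chr17:80036214-80056106, minus strand), had 1681, 1998 and 1880.3 CPM in Ctrl and 1226, 912 and 1012 with DHA + PCA. FASN varied more within groups than ACLY, and its groups stayed apart (−0.82 ± 0.12, adjusted p = 1.95e-04). ACACA, the acetyl-CoA carboxylase that commits carbon to the pathway, had the smallest fall of the 4, from 143, 161 and 157 to 132, 123 and 114 CPM (−0.33 ± 0.08, adjusted p = 0.0351), and was lost without the block.

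Of the 10 desaturases and elongases tested 4 fell, with a list median of −0.20. SCD, which introduces the first double bond into saturated acyl-CoA (chr10:102106772-102124588, plus strand), had 4066, 4192 and 4153 CPM in Ctrl and 2536, 2584 and 2253 with DHA + PCA. SCD had the lowest p of all genes tested (−0.75 ± 0.06, adjusted p = 9.96e-09). FADS2, the delta-6 desaturase, fell from 184, 219.6 and 216 to 141, 115 and 116 CPM (−0.74 ± 0.11, adjusted p = 2.66e-04). FADS1, the delta-5 desaturase, fell by 0.48 and ELOVL6, the elongase of palmitate, by 0.64, without overlap. FADS1 and FADS2 lie head to head on chromosome 11 and their gene models share bases, and the library kit does not mark strand. All 4 remained called without the block. Without replicate number 3 only 1 gene of the list was called, and without number 1 or number 2 there were 4.

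**Figure D2:**
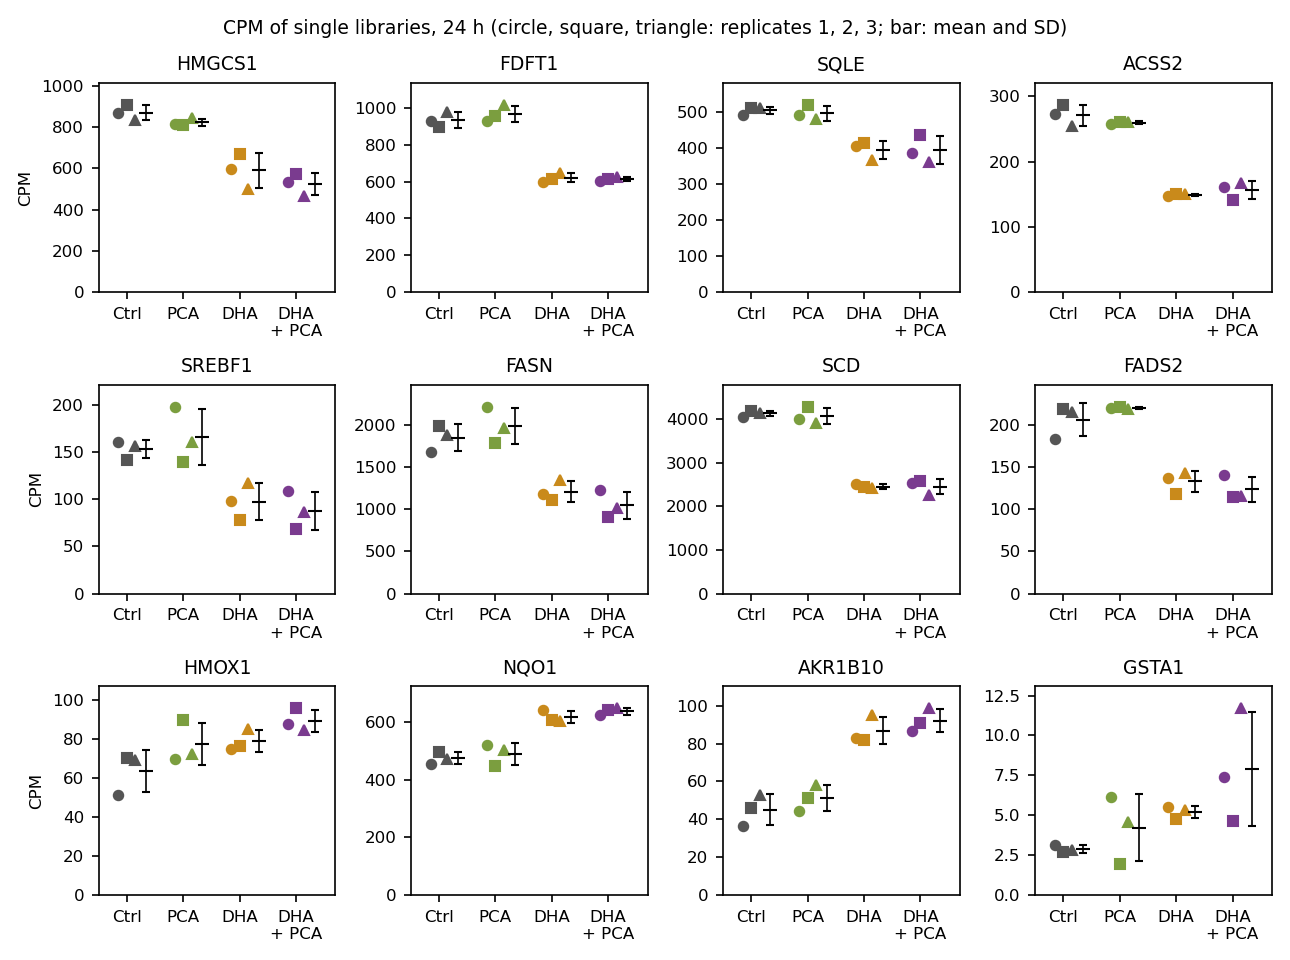
CPM (y axes, from 0) of 8 lipid genes that fell and 4 genes that rose, in the single libraries of Ctrl, PCA, DHA and DHA + PCA at 24 h. Symbols mark the replicate number, and the bars give the mean and SD (n = 3). The DHA + PCA libraries lie apart from the Ctrl libraries in all 12 panels, and those of SCD lie between 2253 and 2584 CPM.

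Genes that use or store fatty acids were called in both directions. Among 24 genes of fatty acid oxidation and of the nuclear receptor PPAR alpha, 3 rose and 1 fell. ACADM and ACADVL, the medium- and very-long-chain acyl-CoA dehydrogenases, rose from 70.5, 67.8 and 62.3 to 88.9, 113 and 79.5 CPM (0.48) and from 169.5, 162 and 139.8 to 217, 185 and 192 CPM (0.34). CREB3L3, a liver transcription factor of the fasting response, rose from 51.03, 48.5 and 48.8 to 89.4, 81.99 and 83.8 CPM (0.78 ± 0.17, adjusted p = 0.015), with tight values in both groups. UCP2, a mitochondrial carrier, fell by 0.49. None of these 4 was called without the block. In the 16 genes of lipid droplets and triglyceride turnover LPIN1, a phosphatidate phosphatase, fell from 68.5, 67.8 and 57.6 to 37.6, 42.2 and 38.2 CPM (−0.71) and PNPLA3, a droplet lipase, from 31.4, 42.4 and 40.02 to 18.7, 23.2 and 26.4 CPM (−0.74). Both were called without the block as well. ACSL3, which activates fatty acids for droplet and phospholipid synthesis, was the 1 gene called of 12 for fatty acid binding and activation (−0.43), and FABP1, the liver fatty acid-binding protein, had −0.26 ± 0.09 (adjusted p = 0.215). No gene was called among 12 apolipoprotein and lipoprotein assembly genes and 8 genes of the LXR receptors and sterol efflux, whose medians were 0.04 and −0.21.

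The NRF2 antioxidant list rose in 7 of 20 genes, and all 20 had positive values, with a median of 0.23. HMOX1, the inducible heme oxygenase, had 51.2, 70.2 and 68.9 CPM in Ctrl and 87.5, 95.5 and 84.7 with DHA + PCA (0.49 ± 0.10, adjusted p = 0.00599). NQO1, a quinone reductase, had 456, 496 and 472 CPM in Ctrl and 623, 641 and 647 with DHA + PCA (0.42 ± 0.07, adjusted p = 9.15e-04). The NQO1 libraries of each group lay close together, whereas Ctrl replicate 1 of HMOX1 was lower than the other Ctrl libraries. OSGIN1, an oxidative stress gene, rose from 13.5, 14.03 and 21.5 to 25.6, 22.4 and 35.2 CPM (0.76 ± 0.15, adjusted p = 0.00898). The thioredoxin TXN (0.37), its reductase TXNRD1 (0.32), the peroxiredoxin PRDX1 (0.36) and the ferritin light chain FTL (0.33) rose as well. The transcript of NRF2 itself, NFE2L2, had 0.17 ± 0.07 (adjusted p = 0.315), its repressor KEAP1 0.13, and the glutamate-cysteine ligase subunits GCLC and GCLM 0.32 (adjusted p = 0.0895) and 0.19. The values of NFE2L2, GCLC and GCLM did not overlap between the groups, and none of the 4 passed the test. NQO1 was the 1 member called without the block. Without replicate 3, no member was called and the median was 0.23.

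In the list of selenoproteins and glutathione peroxidases 1 of 12 genes rose and 2 fell, SEPP1 and CCDC152, described with the other falls. CCDC152 is a member of neither family. Its gene model overlaps that of SEPP1 on the opposite strand, so the 2 falls may rest partly on the same reads. GPX2, a glutathione peroxidase that contains selenium, rose from 344, 372 and 326 to 505, 483 and 538 CPM (0.55 ± 0.08, adjusted p = 3.98e-04). RefSeq promoter windows of GRCh38.p14 were available for 33 of the 46 rises and 65 of the 84 falls. The core of the antioxidant response element, TGACNNNGC on either strand, stood in 5 of the 33 windows of the rises (15.2%) and in 15.2% of the 9782 windows of all genes tested, so its share in the rises did not exceed the background. GPX2 and TXNRD1 were among the 5, together with CREB3L3, PTMA and RPS24. The stretches of GPX2 (chr14:64942838-64942888, minus strand) and TXNRD1 (chr12:104215659-104215709, plus strand) are shown because these antioxidant enzymes rose, with the match in capitals:
GPX2: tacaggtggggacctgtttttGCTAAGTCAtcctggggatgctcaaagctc
TXNRD1: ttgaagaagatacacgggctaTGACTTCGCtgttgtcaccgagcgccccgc
The matches began 122 and 99 bases before the annotated start, and TXNRD1 had a second match, 8 bases before it. The core of the sterol regulatory element, TCACNCCAC on either strand, was in none of the 65 windows of the falls and in 1.10% of those of all genes tested. At so low a share 65 windows may hold no match, so this absence cannot tell the falls from the background. A match is a description of letters and no site was tested.

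Aldo-keto reductases, which reduce lipid aldehydes, ketosteroids and retinal, rose in 5 of 11 genes, with a median of 0.42. AKR1B10 had 36.7, 46.1 and 52.6 CPM in Ctrl and 86.9, 90.9 and 98.6 with DHA + PCA (1.03 ± 0.10, adjusted p = 1.01e-06). Its neighbour AKR1B15 had 3.99, 4.18 and 5.51 CPM in Ctrl and 10.8, 11.6 and 11.4 with DHA + PCA (1.30 ± 0.21, adjusted p = 7.04e-04). The lowest treated library of each gene lay well above the highest Ctrl library. These 2 genes stand side by side on chromosome 7 (134212344 to 134226166 and 134233849 to 134264592) and are closely related copies, so reads may have been split between them. AKR1C2 rose from 146, 167 and 179.6 to 259, 241 and 374 CPM (0.81 ± 0.11), AKR1C1 from 201, 274 and 249 to 341, 331 and 494 CPM (0.68 ± 0.11) and AKR1C3 from 198, 217 and 216 to 250.04, 281 and 318 CPM (0.42 ± 0.07). Treated replicate 3 was the highest library for all 3, and these genes form a cluster of like copies on chromosome 10 with the same uncertainty. Of the 5 only AKR1B10 and AKR1B15 were called without the block.

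Metallothioneins, small cysteine-rich proteins that bind zinc and copper, rose in 3 of 9 genes of their list, with a median of 0.52. MT1G had 5.82, 8.96 and 3.89 CPM in Ctrl and 16.6, 11.8 and 17.8 with DHA + PCA (1.31 ± 0.24, adjusted p = 0.00392). MT1F rose from 8.48, 4.33 and 5.51 to 15.5, 10.3 and 12.4 CPM (1.08 ± 0.23, adjusted p = 0.018). MT1E had 18.1, 20.9 and 11.01 CPM in Ctrl and 36.1, 20.7 and 31.9 with DHA + PCA, and treated replicate 2 lay within the Ctrl range (0.85 ± 0.21, adjusted p = 0.0405). MT1A, MT1X and MT2A had values of 0.74, 0.52 and 0.48 and did not pass. The genes are short copies of one another on chromosome 16, and several rest on fewer than 20 CPM. Without the block 1 of the 9 was called. Without replicate number 3 none was called and the median was 0.16, without number 2 the list had 4 rises and 1 fall with a median of 0.99, and without number 1 it had 1 rise. Among 14 glutathione S-transferases GSTA1 alone was called, from 3.16, 2.69 and 2.82 to 7.41, 4.62 and 11.7 CPM (1.43 ± 0.30, adjusted p = 0.015), the largest rise of the comparison and one with a wide spread among the treated libraries. In a list of 11 tested genes of carbonyl and retinal oxidation and conjugation, written after the values were seen, 3 rose. These were ALDH1A1, a retinal dehydrogenase (0.48), CES1, a carboxylesterase (0.52), and EPHX1, the microsomal epoxide hydrolase (0.35). GSTA1 and these 3 genes were not called without the block, nor was any gene of their lists without replicate number 1 or without number 3.

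The largest fall of all was that of PLA2G3, a secreted phospholipase A2 that releases fatty acids from phospholipids (chr22:31530793-31536593, minus strand). PLA2G3 had 5.98, 4.93 and 5.10 CPM in Ctrl and 1.06, 1.11 and 1.35 with DHA + PCA (−2.16 ± 0.34, adjusted p = 6.46e-04). The gene was low in both groups, and no treated library exceeded 1.35 CPM. C10orf10, a gene of the fasting and FOXO response also named DEPP1, fell from 55.2, 66.6 and 83.3 to 14.99, 33.8 and 26.1 CPM (−1.52 ± 0.19, adjusted p = 2.19e-05). IGFBP1, a secreted binder of insulin-like growth factors whose gene insulin represses, had 459, 505 and 539 CPM in Ctrl and 165, 332 and 211 with DHA + PCA (−1.16 ± 0.16, adjusted p = 1.25e-04). Treated replicate 2 was the highest treated library for both, and neither was called without the block. They were the 2 genes called of 10 tested in a list of insulin and FOXO responsive genes that was written after the values were seen.

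In the activin, BMP and TGF beta list 3 of 12 genes fell and 5 had positive values, with a median of −0.07. FST, the activin antagonist follistatin, had 54.9, 73.9 and 69.97 CPM in Ctrl and 25.4, 34.5 and 34.9 with DHA + PCA (−1.07 ± 0.11, adjusted p = 1.41e-06). CTGF, a matricellular protein also named CCN2, fell from 450.1, 527 and 492 to 278, 351 and 304 CPM (−0.66 ± 0.07, adjusted p = 1.15e-06). Both were among the 3 called. CYR61, a relative of CTGF also named CCN1, fell from 16.3, 21.3 and 14.9 to 11.3, 9.39 and 8.69 CPM (−0.85). In lists written after the values were seen, 5 of 14 target genes of YAP and SRF fell, namely CTGF, CYR61, AKAP12 (−0.56), FILIP1L (−0.49) and ITGA2 (−0.38), and 3 of 13 ERK feedback genes. The latter were the phosphatase DUSP6 (−0.40) and the Sprouty genes SPRY1 (−0.38) and SPRY4 (−0.34), and SPRY4 overlapped between the groups. Without the block 2 of the 14 and 0 of the 13 were called, without replicate number 1 the counts were 1 and 0, and without number 3 they were 2 and 0.

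The remaining large falls had diverse roles. COLGALT2, a collagen galactosyltransferase, went from 7.48, 12.1 and 7.79 to 4.41, 5.41 and 3.15 CPM (−1.07), AGR2, an endoplasmic reticulum disulfide isomerase, from 16.6, 20.00 and 17.1 to 9.17, 10.3 and 8.99 CPM (−0.91), and P2RY8, a G protein-coupled receptor, from 16.3, 18.96 and 15.98 to 8.29, 9.55 and 9.59 CPM (−0.90). TNS1, a focal adhesion protein, fell by 0.87 and MIA2, a protein of endoplasmic reticulum export, by 0.82. CCDC152 fell from 36.9, 37.6 and 28.5 to 16.6, 22.6 and 14.7 CPM (−0.94 ± 0.13, adjusted p = 1.98e-04) and SEPP1, which encodes selenoprotein P, from 497, 554 and 654 to 367, 493 and 479 CPM (−0.35, adjusted p = 0.00599). Their gene models overlap on opposite strands of chromosome 5 (42756920 to 42802539 and 42799982 to 42812024), and without strand their reads cannot be told apart in the shared bases. LYZ, the lysozyme gene, fell by 0.27, from 2016, 2231 and 2242 to 1551, 1968 and 1887 CPM. The other leukocyte genes tested, CD68 and CD14, had −0.09 (adjusted p = 0.832) and 1.49996 (adjusted p = 0.438). The summed level of the list without LYZ was 48.7 to 51.7 CPM in Ctrl and 44.3 to 55.4 with DHA + PCA, and its part in the fall of LYZ was not tested.

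Of the other large rises SPP1, the secreted phosphoprotein osteopontin, had 199, 219.7 and 223 CPM in Ctrl and 330.3, 395 and 416 with DHA + PCA (0.83 ± 0.07, adjusted p = 3.17e-07). BHMT, a methyltransferase that remethylates homocysteine with betaine, rose from 8.14, 8.36 and 9.27 to 14.1, 13.4 and 14.4 CPM (0.70 ± 0.17, adjusted p = 0.038). Cytosolic ribosomal protein genes, a list written after the values were seen, rose in 6 of 79, and 71 had positive values with a median of 0.16. RPL41 rose the most, from 237, 300.2 and 362 to 391, 503 and 427 CPM (0.57), and others were RPL36 (0.39), RPS24 (0.30), RPL19 (0.28) and RPL11 (0.25). The share of counts on this list was 3.69 to 4.04% in Ctrl and 4.23 to 4.42% with DHA + PCA. The rises had a median counted length of 1473.5 bp, the falls of 3391 bp and all genes tested of 2921 bp. In the lowest quartile of counted length the median log2 fold change was 0.061 and in the highest quartile −0.046. With a counted-length offset, chosen after seeing the data, 1 of the 79 was called, without the block 0, with DESeq2 11 and with a GC-content offset, also chosen after seeing the data, 24. Without replicate number 1, 2 or 3 the counts were 1, 3 and 1. Ribosomal protein genes also have many processed pseudogenes, and the part that length played in these rises was not tested further. Among 76 nuclear subunits of the respiratory chain and ATP synthase 1 was called, UQCRB (0.43). This share of 1.32% was near the 1.09% of all genes tested. Outside that list MTRNR2L8 (0.36) and MTRNR2L2 (0.51), which are copies of the mitochondrial ribosomal RNA, were called as rises.

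**Figure D3:**
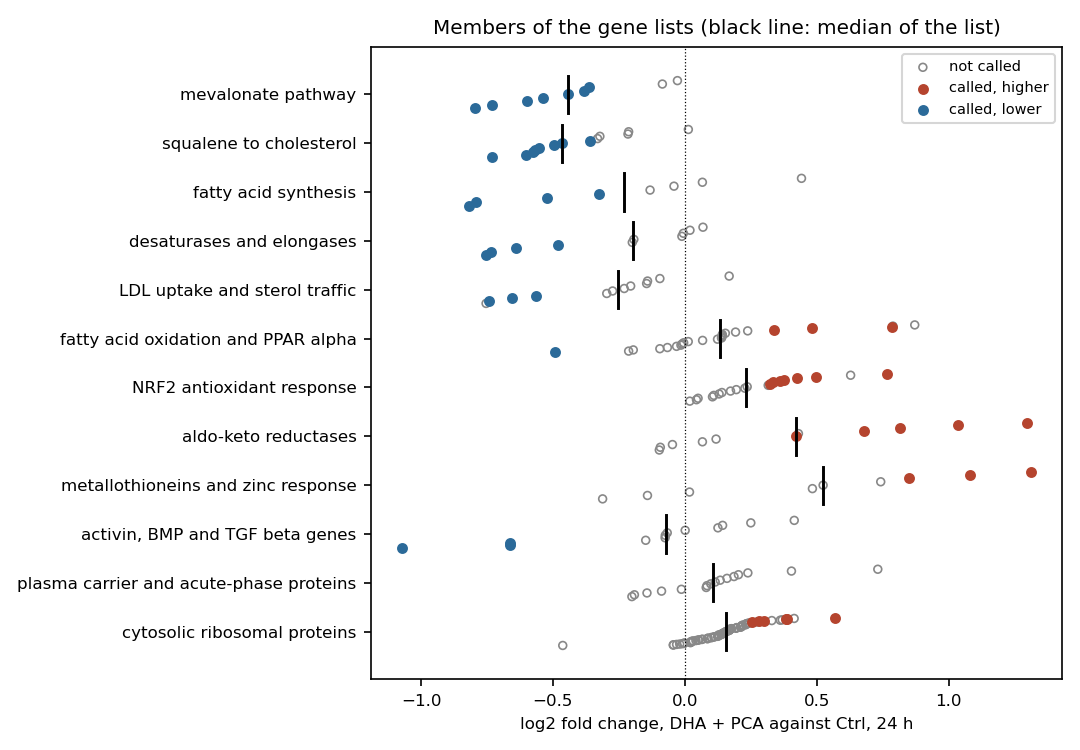
Log2 fold change of DHA + PCA against Ctrl at 24 h (x axis) of the tested members of 12 gene lists, 1 circle per gene, filled where called. The black line is the median of each list, which lies at −0.46 for squalene to cholesterol and at 0.52 for metallothioneins and the zinc response.

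Several gene lists gave no call. Among all genes tested 1.09% were called, a share at which lists of this size hold few or no calls. The absence of calls therefore does not show that a list was unchanged. None of 31 DNA replication genes, 23 mitosis genes, 16 plasma carrier and acute-phase proteins, 9 hepatocyte markers, 19 genes of the ATF4 and endoplasmic reticulum stress response and 5 genes of the aryl hydrocarbon receptor response passed the test. The list medians were 0.07, 0.07, 0.11, −0.01, 0.14 and −0.07. Of the DNA replication genes 25 had positive and 6 negative values, and of the mitosis genes 19 and 4. With the GC-content offset, chosen after seeing the data, all of these lists but that of the aryl hydrocarbon receptor had calls. Of the stress genes ATF4 had 0.14, DDIT3 0.43 and ASNS, the asparagine synthetase, 0.64 ± 0.24 (adjusted p = 0.281).

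Whether PCA altered what DHA did was addressed by setting DHA + PCA beside each single compound. The comparisons with Ctrl share the Ctrl libraries, so their values are given side by side only. Over the 84 falls the median log2 fold change was −0.51 with DHA + PCA, −0.43 with DHA and −0.09 with PCA. Over the 46 rises the medians were 0.42, 0.31 and 0.14, in the same order. HMGCS1 had −0.73 with DHA + PCA, −0.56 with DHA and −0.08 with PCA, and SCD −0.75, −0.75 and −0.02. HMOX1 had 0.49, 0.31 and 0.28, and GSTA1 1.43, 0.87 and 0.51. Some falls had PCA values far from 0. CCDC152 had −0.94, −0.54 and −0.65, COLGALT2 −1.07, −0.38 and −0.59, and MIA2 −0.82, −0.80 and −0.63. None of these genes was called with PCA alone. The members were selected on DHA + PCA, so the order of these medians was not read as a difference between treatments.

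In the direct test of DHA + PCA against DHA, 0 of the 11893 genes were called (0%), with 503 at an unadjusted p under 0.05 and 6 called by the DESeq2 Wald test. The 95% interval of this difference lay within ±0.5 on the log2 scale for 104 of the 130 genes. This band is wider than the median change with DHA itself, 0.31 over the rises and −0.43 over the falls. The count therefore cannot show that PCA added little to DHA. Before adjustment it left out 0 for 37 of the 130, of which 35 were further from 0 with DHA + PCA, in genes that were selected on the DHA + PCA libraries. For HMGCS1 the difference was −0.17 (95% interval −0.39 to 0.06), for SCD −0.00060 (−0.11 to 0.11), for SREBF1 −0.16 (−0.44 to 0.12) and for FASN −0.21 (−0.45 to 0.03). PLA2G3 had the most negative difference of the 130, −0.89 (−1.70 to −0.09, adjusted p = 0.994), and GSTA1 the most positive, 0.56. The lowest p belonged to COX7B, a subunit of cytochrome c oxidase named after its value was seen, which was 0.47 higher with DHA + PCA than with DHA (95% interval 0.30 to 0.63, adjusted p = 0.0596). Against Ctrl, COX7B had 0.28 with DHA + PCA (adjusted p = 0.09) and −0.18 with DHA. With the groups compared fitted alone 5 genes were called, COX7B, RPL36AL, RPS24, MTRNR2L8 and FABP1, all higher with DHA + PCA than with DHA. In the fit of 18 libraries 63 of the 79 cytosolic ribosomal protein genes had a positive difference from DHA, with a median of 0.11. The part of gene length in this difference was not tested.

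The interaction asks whether the combined change departs from the sum of the single changes on the log2 scale. Here 0 of 11893 genes were called (0%), with 401 at an unadjusted p under 0.05, and DESeq2 also called 0. No call arose in any of the 25 settings tried. The interval of the interaction lay within ±0.5 for 96 of the 130 genes. That band is again wider than the median DHA change of the rises and of the falls, so this count cannot show that the changes were additive. Before adjustment it left out 0 for 6 of the 130, among them MIA2 at 0.61 (95% interval 0.06 to 1.16) and PNPLA3 at −0.33 (−0.66 to −0.0027). SCD had 0.02 (95% interval −0.14 to 0.18), AKR1B10 −0.10 (−0.39 to 0.20) and FASN −0.31 (−0.65 to 0.03).

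**Figure D4:**
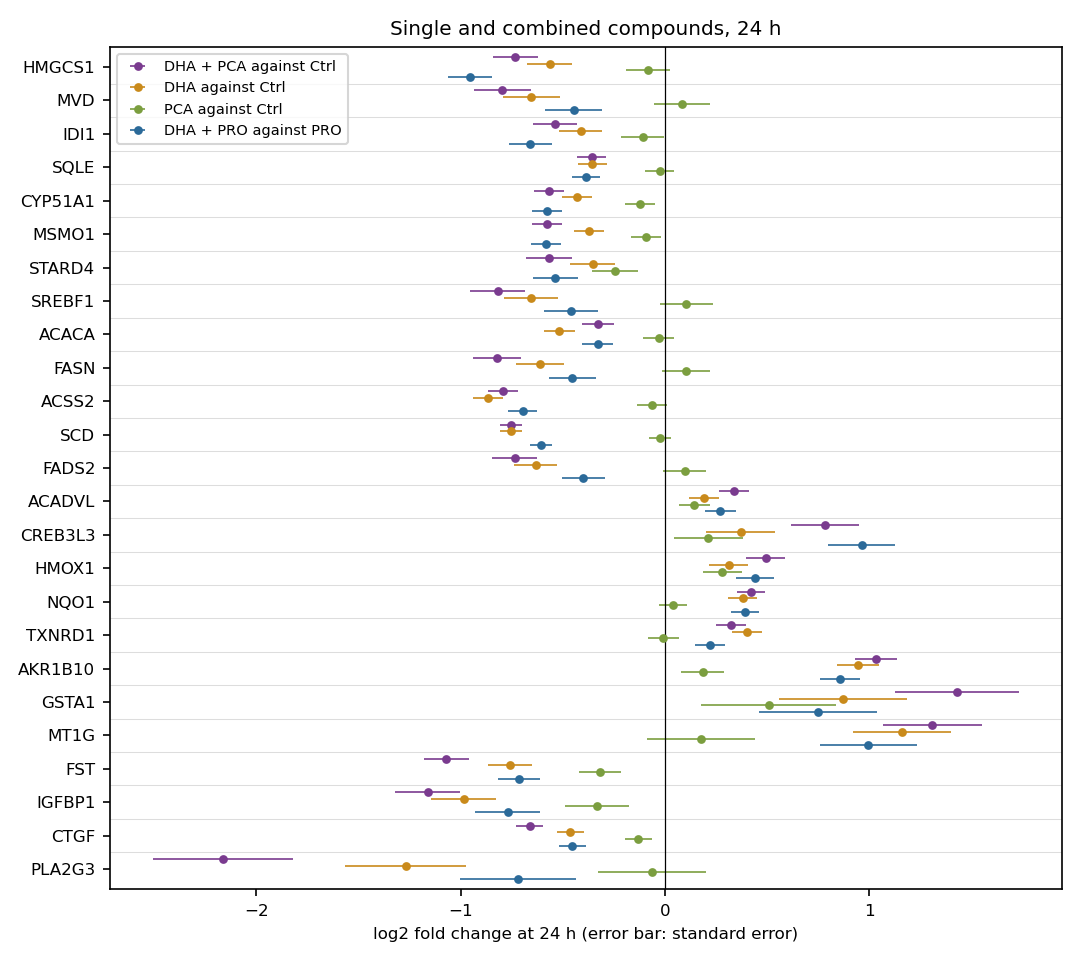
Log2 fold change at 24 h (x axis, error bars are SE) of 25 called genes for DHA + PCA, DHA and PCA, each against Ctrl, and for DHA + PRO against PRO. The values of PCA lie nearer to 0 than those of the other 3 comparisons for the lipid genes shown, for example −0.02 for SCD against −0.75, −0.75 and −0.61.

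DHA + PRO against PRO compared 6 libraries outside the DHA + PCA and Ctrl groups, with the same 3 replicate numbers. Both comparisons came from the same fit of 18 libraries and shared its block terms and estimate of spread. Their calls are therefore not independent. In DHA + PRO against PRO 99 genes were called (0.832%), 26 higher (0.219%) and 73 lower (0.614%). Of the 130 genes, 121 had the same sign there, 40 of the rises and 81 of the falls, or 93.1%, against 56.9% of all genes tested. The same 2 comparisons shared 49 called genes of 1 direction, 14 rises and 35 falls, which were 37.7% of the 130 and 49.5% of the 99. Over the falls the median was −0.40 in DHA + PRO against PRO, and over the rises 0.25. The mevalonate and squalene lists had medians of −0.45 and −0.39 there, the NRF2 list 0.14 and the aldo-keto reductases 0.39. AKR1B10 had 0.86, AKR1C1 0.78, FST −0.71 and CREB3L3 0.96. ACADM, by contrast, had −0.22 against 0.48 with DHA + PCA, and RPL41 0.01 against 0.57, and these differences were not tested. DHA + PRO replicate 2 held 42326734 counts and was by far the deepest library of 24 h. Without it 47 genes were called in DHA + PRO against PRO, and 118 of the 130 had the same sign. DHA + PCA against Ctrl then had 99 calls, of which 98 were among the 130. Leaving out PRO replicate 2 gave 1464 called genes, of which 63 were among the 130 in the same direction, and 115 of the 130 had the same sign.

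At 6 h DHA + PCA changed 11 of 11872 genes (0.0927%), and all 11 were also called at 24 h. Of these 10 fell, among them HMGCS1, MSMO1, HSD17B7, IDI1, STARD4, CYP51A1, SQLE and FDFT1, and MT1E rose. HMGCS1 had −0.93 at 6 h and −0.73 at 24 h, MSMO1 −0.83 and −0.58, and IDI1 −0.67 and −0.54. All 10 early falls belonged to the lists of the mevalonate pathway, squalene to cholesterol, or LDL uptake and sterol traffic. Among fatty acid genes the values at 6 h were 0.02 for FASN, −0.27 for SCD, 0.02 for FADS2 and −0.30 for ACSS2. Of the 24 h calls 72 of the 84 falls had a negative value at 6 h and 31 of the 46 rises a positive one, with medians of −0.20 and 0.06.

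The test of the difference between the times called 7 of 12046 genes (0.0581%), with 1121 at an unadjusted p under 0.05. SPP1, AKR1B10 and AKR1B15 were higher against Ctrl at 24 h than at 6 h, by 0.77, 0.80 and 1.26 on the log2 scale. FST, SCD, C10orf10 and FADS2 were lower, at −1.03, −0.48, −1.34 and −0.76. No gene of the mevalonate or squalene lists was among the 7. At a share of 0.0581% both lists may hold no call, so this absence does not show that their values were equal at the 2 times.

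**Figure D5:**
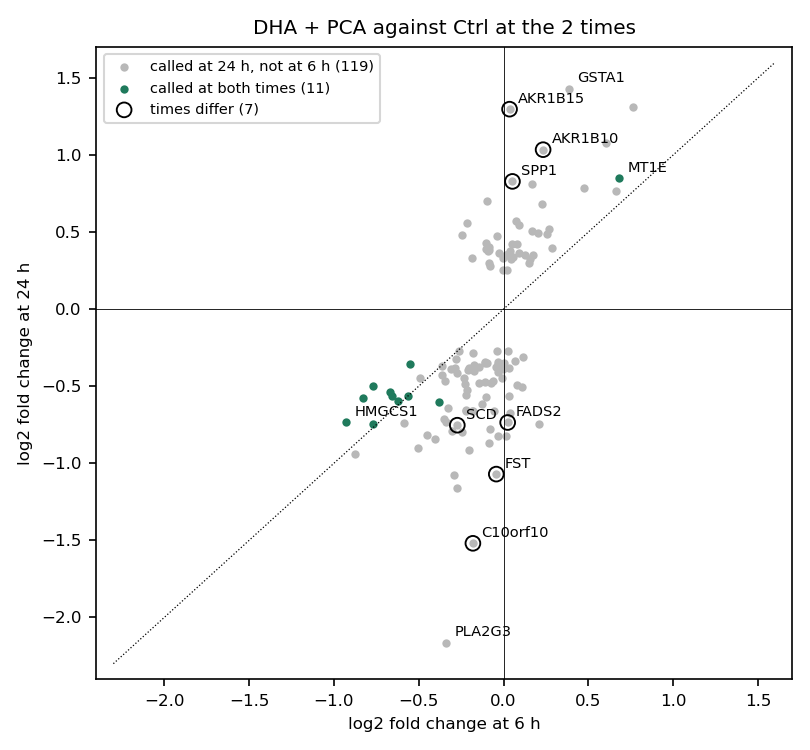
Log2 fold change of DHA + PCA against Ctrl at 24 h (y axis) against that at 6 h (x axis) for the 130 genes called at 24 h. Green points are the 11 genes called at both times, rings mark the 7 genes whose values differed between the times, and the dotted line marks equal values, near which HMGCS1 lies at −0.93 and −0.73.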

How the data were processed

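The authors sequenced 36 TruSeq v2 libraries, a kit that does not mark strand, mapped them with STAR on hg19 and counted reads per RefSeq gene with iRNA-seq (versions not given in the sources used here). They deposited raw counts, with the counted length of each gene in bp. Of 18932 genes, 11893 passed filterByExpr. Counts were fitted with edgeR 4.0.16 in R 4.3.3 (TMM scaling, quasi-likelihood F test, Benjamini-Hochberg adjustment) over the 18 libraries of 24 h, with group and replicate number as terms. Intervals are 95% intervals of the fit. DESeq2 1.42.0, other scalings, filters and samples were alternatives, and the code was tested on simulated data. The file headers give culture numbers that match the replicate numbers in each group, without naming an experiment. Of 18 libraries, 17 correlated best with their own replicate number, with a mean r of 0.153 between deviations from the group means. The mean for different numbers, −0.076, follows from centring the 3 libraries of each group and is not separate evidence for the pairing. Between DHA + PCA and Ctrl, same-numbered deviations correlated at 0.097, 0.029 and 0.161. The titles number the libraries of replicates 1 and 2 as 1822 and 1823 in Ctrl and 1832 and 1833 in DHA + PCA. Those of replicate 3 are 1933 and 1938, so replicate 3 belongs to a separate run of library numbers. What that split stands for is not stated in the labels. No library pair was a duplicate (lowest chi-square per degree of freedom 3.96). Promoters came from RefSeq on GRCh38.p14, and figures were drawn with matplotlib 3.10.9.

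The comparison, its members and the gene lists were chosen with earlier results of these data known. Genes were named if they were among the 10 largest rises or 15 largest falls without overlap, were called members of a list, were among the first uncalled members of a list, were named in the study, or were called in a direct test. GCLC, GCLM, MT1A, MT1X, MT2A, SPRY1, the ribosomal genes and other members of the lists written after the values were seen are named as such list members, and COX7B for its low p. Some members of the lists are counted in them and not reported here by name.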

Additional observations from a re-analysis of the deposited data

Results flagged for a closer look

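For 7 genes the change under DHA + PCA differed between 24 h and 6 h in a test of the difference itself (edgeR quasi-likelihood F test, p adjusted over 12046 genes). SPP1 was higher by 0.77 ± 0.10 on the log2 scale at 24 h (adjusted p = 0.000123), AKR1B10 by 0.80 ± 0.14 (adjusted p = 0.00770) and AKR1B15 by 1.26 ± 0.24 (adjusted p = 0.0166). The difference was −1.03 ± 0.15 for FST (adjusted p = 0.000389), −0.48 ± 0.08 for SCD (adjusted p = 0.00366), −1.34 ± 0.25 for C10orf10 (adjusted p = 0.00997) and −0.76 ± 0.15 for FADS2 (adjusted p = 0.0371). Without the replicate block 0 genes were called, with 493 at an unadjusted p under 0.05, and without replicate 3 also 0, with 551.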

How the results depend on the processing

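For DHA + PCA against Ctrl at 24 h, 130 genes were called with the replicate number as a block and 34 without this pairing. The unfiltered table gave 199, and a GC-content offset, chosen after seeing the data, 387. Leaving out 1 replicate number gave 25 to 124 (replicate 3 the lowest, replicate 1 52). Leaving out 1 library of the groups compared gave 53 to 97 (Ctrl replicate 1 53, DHA + PCA replicate 3 54, Ctrl replicate 3 70, Ctrl replicate 2 78). Without DHA + PRO replicate 2, which is part of the fit only, 99 genes were called. DESeq2 called 181, and a counted-length offset, also chosen after seeing the data, 94.

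DHA + PCA against DHA had 0 calls, 5 with only the groups compared, 6 with DESeq2, 8 without the filter, 0 to 1 without 1 replicate number (1 without replicate 2) and 18 with the GC-content offset. The interaction had 0 in every setting tried. DHA + PRO against PRO had 99 calls, 27 without the replicate block, 170 with DESeq2, 340 without the filter, 187 with the GC-content offset, 28 to 637 without 1 replicate number (28, 637 and 32 without replicates 1, 2 and 3) and 37 to 1464 without 1 library (PRO replicates 1, 2 and 3 49, 1464 and 56, DHA + PRO replicates 1 and 2 37 and 47).

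The difference between the times had 7 calls, 0 without the replicate block, 54 with only the groups compared, 19 with DESeq2, 25 without the filter, 0 to 7 without 1 replicate number (replicate 1 3, replicate 3 0) and 3 to 8 without 1 library (Ctrl replicate 3 of 6 h 3, DHA + PCA replicate 2 of 6 h and Ctrl replicate 1 of 24 h 4 each). The 6 h comparison had 11 calls, 2 without the replicate block, 168 with only the groups compared, 23 with DESeq2, 150 without the filter, 1 to 17 without 1 replicate number (replicate 1 17, replicate 3 1) and 7 to 18 without 1 library (Ctrl replicate 2 18, Ctrl replicate 3, DHA + PCA replicates 2 and 3 7 each). Among named genes that did not pass the test, the sign turned for LBR with the GC-content offset (−0.011 on the log2 scale) and, over the fits without 1 library or replicate number, for LBR (−0.087 to 0.090) and GGPS1 (−0.14 to 0.084). The causes of these shifts were not tested. With 3 pooled libraries a group, p-values cover the spread between libraries of 1 cell line, and low genes such as PLA2G3 and GSTA1 rest on few counts.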
